A study of Mus musculus with 14 samples.

Results

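The 10 lamin and nuclear envelope genes examined here were Lmna, Lmnb1, Lmnb2, Emd, Syne1, Syne2, Sun1, Sun2, Lbr and Tmpo, and every peak that the deposited annotation gave to one of them was taken from 12 lists of MyoD and MyoG binding peaks. The genes were chosen by the scores of MyoD peaks in activated cells: a region in Lmnb2 had one of the highest of the study, and the others are its family. They held 23 of 10303 listed peaks, which merged into 13 regions. A peak is a stretch of the genome where chromatin pulled down with an antibody (ChIP-seq) gave more reads than the background, and its score is minus 10 times the log10 of its p-value, so that the lowest listed score of 50 is a p-value of 1e-05. A gene with no peak was counted as not bound in these lists.

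Lamins are the filament proteins of the nuclear lamina, the meshwork beneath the inner nuclear membrane. Lmna encodes the A-type lamins, and Lmnb1 and Lmnb2 encode the B-type lamins. Emerin (Emd) and the membrane-bound lamina-associated polypeptides made from Tmpo are inner membrane proteins with a LEM domain, which binds a chromatin protein. Lbr, the lamin B receptor, is a further anchor for chromatin. Sun1 and Sun2 cross the inner membrane and join the nesprins (Syne1, Syne2) of the outer membrane, forming the LINC complexes that tie the nucleus to the cytoskeleton. Mutations in LMNA and EMD cause Emery-Dreifuss muscular dystrophy. MyoD and MyoG are basic helix-loop-helix factors of the muscle lineage that bind E-boxes, sites of the form CANNTG.

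All libraries came from adult mice labelled wild-type in which Pax7-Cre(ERT2), a recombinase driven from a muscle stem cell gene, switched on a mito-Dendra2 allele after tamoxifen (75 mg/kg daily for 5 days), so that the stem cells and their progeny were fluorescent. Activated stem cells (ASCs; Dendra2+, CD34-) were sorted from tibialis anterior muscle 2 days after 50 µL of 1.2% BaCl2, and quiescent stem cells (QSCs; Dendra2+, CD34+) from the opposite muscle, which received saline. There were 3 libraries in each of 4 groups (ASC MyoD, QSC MyoD, ASC MyoG and QSC MyoG), and 2 input libraries were not analysed here. The sources used here do not say how many mice each library pooled, and peak lists hold no expression values against which the sorted cells could be checked. The lists held 2262 to 2652 peaks in ASC MyoD, 139 to 174 in QSC MyoD, 605 to 916 in ASC MyoG and 120 to 167 in QSC MyoG libraries. Read depth is unknown, and its part in the number of peaks per list was not tested.

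Of the 10 genes, 6 had at least 1 peak and 4 (Emd, Syne2, Sun2 and Lbr) had none in any list. An ASC MyoD peak was listed at 5 of them, against 10.7% of 21900 RefSeq protein-coding genes. A QSC MyoD peak was listed at 1 (1.02% of protein-coding genes), and none had a QSC MyoD region in 2 or more libraries (0.0594%). The ASC MyoD libraries held 20 of the 23 peaks, with 9, 6 and 5 in replicates 1, 2 and 3 (mean 6.67 ± 2.08, SD, n = 3). QSC MyoD libraries held 0, 1 and 0, ASC MyoG libraries held 2, 0 and 0, and no QSC MyoG library held any. The ASC and QSC MyoD libraries thus did not overlap in number. As a share of the list, however, these peaks made up 0.339%, 0.265% and 0.218% of the ASC MyoD lists, and 0%, 0.719% and 0% of the shorter QSC MyoD lists, where the single peak carries the whole value and the ranges overlap.

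**Figure D1:**
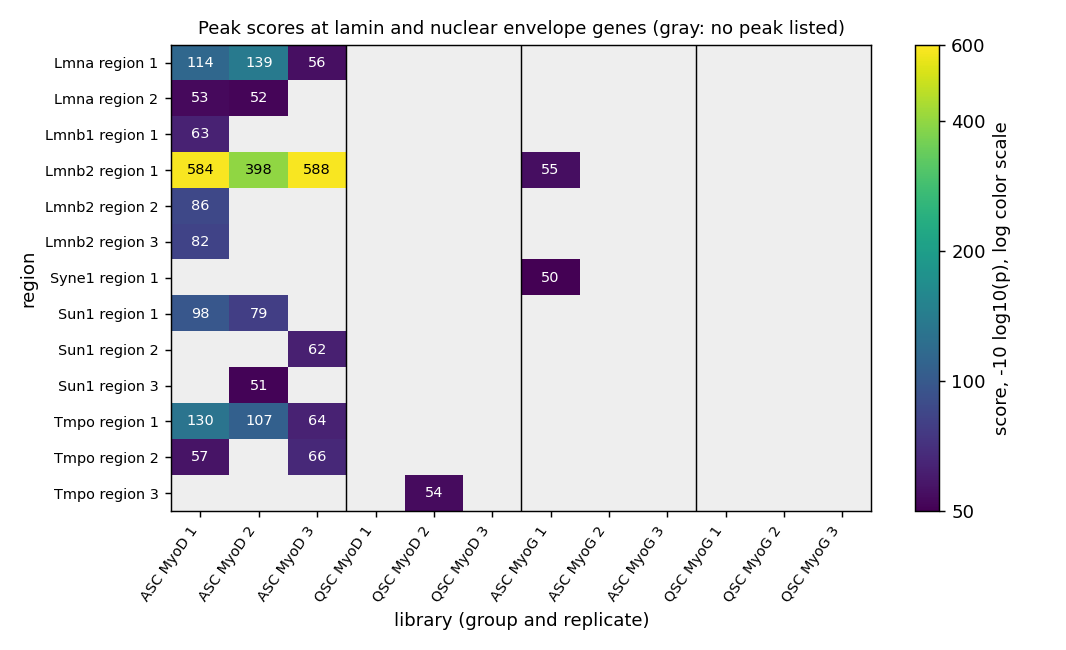
Score of the listed peak, minus 10 log10(p) on a log color scale, for the 13 regions (rows) in the 12 libraries (columns), with gray where no peak was listed. The ASC MyoD columns hold 11 of the 13 regions, and Lmnb2 region 1 stands out with scores of 398 to 588.

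A region was called ASC-specific when it had a peak in at least 2 of the 3 ASC libraries and in none of the 3 QSC libraries of the same antibody. By that rule 6 of the 12 MyoD regions at these genes were ASC-specific, in 4 genes: Lmnb2, Lmna (2 regions), Tmpo (2 regions) and Sun1. Over the whole table, 44.0% of 4488 MyoD regions were ASC-specific. At the level of genes, 5.92% of 21900 RefSeq protein-coding genes were given such a region, against 4 of these 10. Tmpo was also given a QSC peak elsewhere, and with every gene that had one left out the count was 3 of 10, against 5.76%. Since Lmnb2 was picked for its score and its relatives were picked with it, these counts are given as a description. Of the 11 regions with an ASC MyoD peak, 3 were in all 3 libraries, 3 in 2 libraries and 5 in 1 library, where the shares over all 4100 such regions were 27.0%, 21.4% and 51.6%. Presence of a peak was compared over every MyoD region by an exact two-sided permutation test, in which 3 ASC against 3 QSC libraries can give no p-value below 0.1. The lowest adjusted p-value over the 4488 regions was 0.404, so no region of the table could pass a threshold of 0.05.

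Lmnb2 (ENSMUSG00000062075), a B-type lamin gene on the minus strand of chromosome 10, carried the leading region. Lmnb2 region 1 (chr10:80913626-80914958, mm10) had scores of 584, 398 and 588 in ASC MyoD replicates 1, 2 and 3 (mean 523 ± 109, SD, n = 3) and no peak in QSC MyoD. The lowest of these scores exceeded every other MyoD score at the 10 genes, the next being 139 at Lmna. Within its list the peak ranked 4, 9 and 2 in the 3 replicates, and by mean score the region ranked 5 of 1986 regions found in at least 2 ASC MyoD libraries, whose median mean score was 82.3. Its neighbors in that order had mean scores of 538 (rank 4) and 479 (rank 6). The 3 peaks and the MyoG peak below had 823 bp in common. The center of that stretch lay 3.83 kb downstream of the RefSeq start of Lmnb2.

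The lists disagreed on the gene part of Lmnb2 region 1. In replicates 1 and 2 it was annotated as promoter at 2-3kb, and in replicate 3, where the peak lay slightly further into the gene, as intron 1 of 11. Such a difference in gene part was found in 2.44% of the 1107 regions present in all 3 ASC MyoD libraries. By RefSeq the region lies within the gene. The near edges of the peaks in replicates 1, 2 and 3 lay 3.287, 3.315 and 3.417 kb downstream of the upstream RefSeq start. The promoter label at 2-3kb therefore matches no RefSeq start used here.

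Lmnb2 had 2 further MyoD regions, both in ASC replicate 1 alone and both inside the gene. Lmnb2 region 2 (chr10:80910967-80912056, intron 1) had a score of 86.1 and region 3 (chr10:80909066-80910026) a score of 82.5, above the list median of 75.1. Region 3 was annotated as promoter at 2-3kb. It lay 3.13 kb upstream of another RefSeq start inside the gene. The 3 regions fell within 4.75 kb of each other, center to center.

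The 3 regions outside the family whose scores over the 12 libraries were most like those of Lmnb2 region 1 were given to Olfml2b, Mnat1 and Galnt2l, with mean absolute differences of 13.0, 25.4 and 29.4 score units per library (a missing peak counted as 0). All 3 had peaks in the 3 ASC MyoD libraries and none in QSC. The Mnat1 region also had a MyoG peak in all 3 ASC libraries, and the other 2 regions had none.

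**Figure D2:**
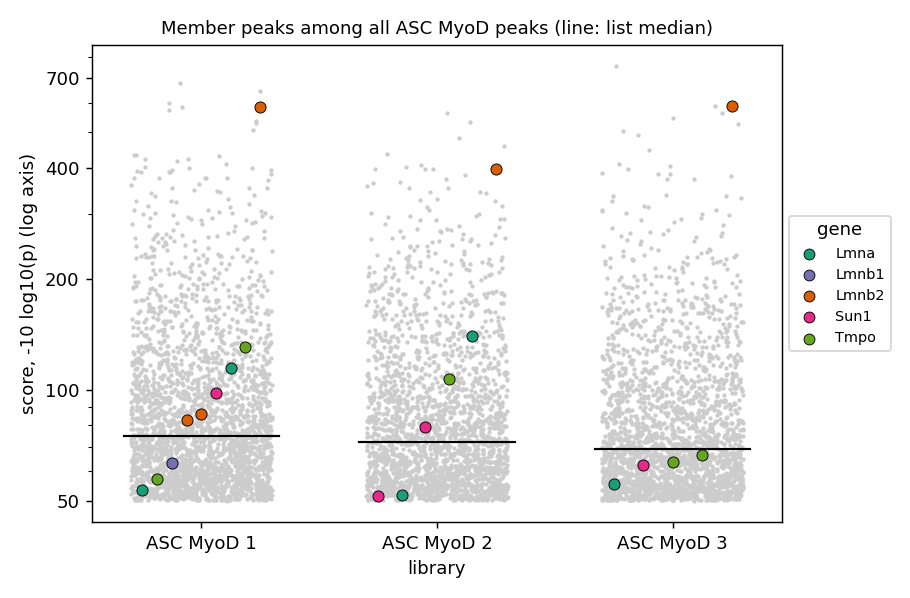
Scores, minus 10 log10(p) on a log axis, of all peaks in the 3 ASC MyoD lists (gray points, black line at the list median), with peaks of Lmna, Lmnb1, Lmnb2, Sun1 and Tmpo in color. The Lmnb2 peak lies near the top of each list, while in replicate 3 the other 4 colored peaks lie below the median of 68.9.

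Lmna (ENSMUSG00000028063), on the minus strand of chromosome 3, had 2 ASC-specific MyoD regions. Lmna region 1 (chr3:88496486-88497374), in intron 1 of 11, had scores of 114, 139 and 55.5 in ASC MyoD replicates 1, 2 and 3 (mean 103 ± 43.1, SD, n = 3). Its percentile within the list was 78.7, 87.4 and 20.9 in these replicates. The peaks shared 362 bp, which is the whole of the narrow replicate 2 peak, although that peak had the highest score of the 3 as listed. The RefSeq promoters held 2 Lmna starts. Lmna region 1 lay between them, 6.43 kb downstream of the upstream start and 3.61 kb upstream of the inner start. The RefSeq gene begins further upstream, at -6.58 kb from the upstream start in the direction of transcription. Lmna region 2 (chr3:88499897-88500836), annotated as promoter at 2-3kb, had scores of 53.3 and 51.6 in replicates 1 and 2 and no peak in replicate 3. These scores are close to the lowest in the lists, at rank 1970 of the 1986 regions. No QSC MyoD library and no MyoG library had a peak at Lmna.

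Lmnb1 (ENSMUSG00000024590), the other B-type lamin gene, differed from Lmnb2 in these lists. Since Lmnb2 was picked for its high score, this difference is given as a description only. Lmnb1 had 1 peak (chr18:56719965-56720771, intron 1 of 10) with a score of 63.4 in ASC MyoD replicate 1, and was therefore not ASC-specific by the rule. The lamin genes together thus had 3 ASC-specific regions, in Lmna and Lmnb2.

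**Figure D3:**
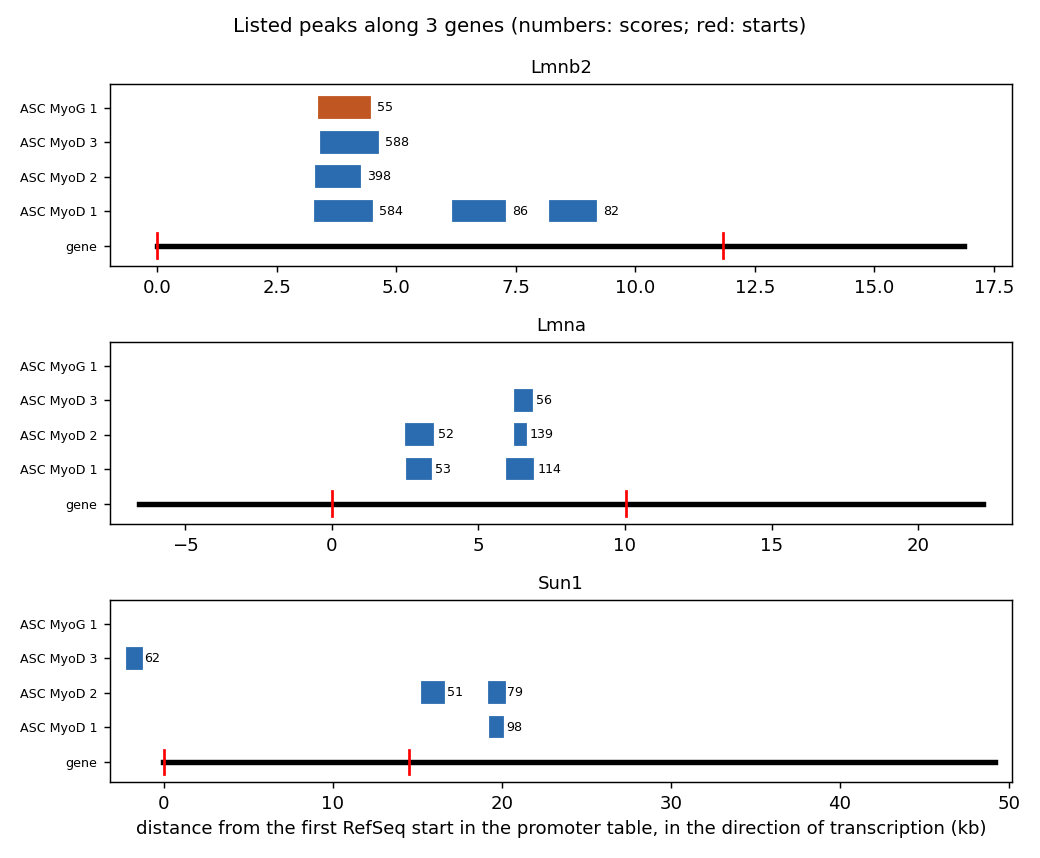
Listed peaks (boxes, with scores) along Lmnb2, Lmna and Sun1 in the 3 ASC MyoD libraries (blue) and ASC MyoG replicate 1 (orange). Distance is in kb from the upstream start among the RefSeq promoters, in the direction of transcription. The black line is the RefSeq gene, which for Lmna begins upstream of that start, and red ticks are starts of RefSeq promoters. Lmnb2 region 1 and Lmna region 1 line up across the 3 MyoD libraries at 3.83 and 6.43 kb, while Sun1 has no region in all 3.

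Among the inner membrane proteins, Tmpo (ENSMUSG00000019961, chromosome 10, minus strand) had 2 ASC-specific MyoD regions, both annotated as distal intergenic and both upstream of the gene. Tmpo region 1 (chr10:91241315-91242275), 60.0 kb outside the RefSeq gene, had scores of 130, 107 and 63.6 in ASC MyoD replicates 1, 2 and 3 (mean 100.2 ± 33.8, SD, n = 3). Tmpo region 2 (chr10:91183122-91183966), 1.37 kb from the gene by its nearest edge, had scores of 57.1 and 66.3 in replicates 1 and 3 and no peak in replicate 2. From the nearest start of a RefSeq promoter, Tmpo region 1 lay 70.2 kb upstream and Tmpo region 2 lay 11.9 kb upstream. Tmpo region 3 (chr10:91614108-91614782), 433 kb from the gene, was the only QSC peak at the 10 genes, with a score of 53.9 in QSC MyoD replicate 2. It had no counterpart in ASCs. Emd had no peak. The nearest listed peak lay 19.3 kb from it and was found in 1 ASC MyoD library. The nearest peak to Lbr lay 151 kb away.

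Of the LINC complex genes, Sun1 (ENSMUSG00000036817, chromosome 5, plus strand) had 3 MyoD regions spread over 21.5 kb, and a peak of Sun1 was present in each ASC MyoD library. No single region was shared by all 3. Sun1 region 1 (chr5:139219851-139220820), annotated as promoter at 2-3kb, had scores of 98.1 and 79.3 in replicates 1 and 2 and was ASC-specific. By RefSeq, Sun1 region 1 lay inside the gene, 5.17 kb downstream of the nearest start and 19.7 kb downstream of the first. Sun1 region 2 (chr5:139198424-139199328), 1.76 kb upstream of the first RefSeq start and annotated as promoter at 1-2kb, was listed in replicate 3 alone with a score of 62.5. Sun1 region 3 (chr5:139215885-139217236), in intron 2 of 22, was listed in replicate 2 alone with a score of 51.4. Sun2 had no peak, and the nearest listed peak lay 446 kb away.

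The nesprin genes are by far the longest of the set (Syne1 531 kb, Syne2 293 kb), yet neither was given a MyoD peak. Among protein-coding genes of 200 kb or more, 23.4% of 990 had an ASC-specific MyoD region, against 4.30% of the 11908 genes of 5 to 50 kb, the range that holds the other 8 genes examined here. The nearest peak to Syne2 lay 260.0 kb from the gene. Syne1 (ENSMUSG00000096054) was given 1 peak (chr10:5412607-5413260, intron 10 of 31), with MyoG in ASC replicate 1, at a score of 50.3.

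The count for Syne1 depended on the annotation. Inside the RefSeq span of Syne1 (chr10:5020192-5550692) the lists held 2 MyoD regions that were given to Gm10097 instead. One (chr10:5110554-5111554) had scores of 81.0, 72.6 and 71.4 in the 3 ASC MyoD libraries (mean 75.0 ± 5.28, SD, n = 3) and no QSC peak, and so was ASC-specific. It was annotated as distal intergenic. The other (chr10:5068882-5069345) was listed in ASC replicate 3 alone with a score of 50.7, near the lowest in the list. The deposited annotation placed that peak at the promoter (<=1kb) of Gm10097, a gene not found by symbol in the RefSeq genes used here. With regions assigned to any protein-coding gene that they overlapped or lay within 3 kb of, 5 of the 10 genes had an ASC-specific MyoD region (Syne1 joined the 4 named), against 5.17% of all protein-coding genes. This assignment was chosen after the values had been seen.

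Promoter sequences were taken from RefSeq (GRCm38.p6, the assembly that mm10 is built on), which held 15 promoters of 300 bases for 9 of the 10 genes. The only 1 of them that overlapped a peak was the innermost Syne1 promoter, which lay wholly within the ASC MyoD replicate 3 peak just described. Over all 32851 promoters, 1.10% overlapped an ASC MyoD peak. It is printed here with the Lmnb2 and Lmna promoters that lie upstream of the regions in intron 1, each on the minus strand and 5′ to 3′, with every CANNTG match in capitals.
Syne1 inner promoter, chr10:5069014-5069313: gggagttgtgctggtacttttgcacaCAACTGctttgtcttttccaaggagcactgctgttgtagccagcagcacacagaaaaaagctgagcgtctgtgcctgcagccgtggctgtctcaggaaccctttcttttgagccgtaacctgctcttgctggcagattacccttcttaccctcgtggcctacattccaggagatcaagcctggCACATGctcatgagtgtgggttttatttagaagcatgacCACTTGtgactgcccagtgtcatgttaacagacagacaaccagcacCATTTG
Lmnb2 promoter, chr10:80918196-80918495: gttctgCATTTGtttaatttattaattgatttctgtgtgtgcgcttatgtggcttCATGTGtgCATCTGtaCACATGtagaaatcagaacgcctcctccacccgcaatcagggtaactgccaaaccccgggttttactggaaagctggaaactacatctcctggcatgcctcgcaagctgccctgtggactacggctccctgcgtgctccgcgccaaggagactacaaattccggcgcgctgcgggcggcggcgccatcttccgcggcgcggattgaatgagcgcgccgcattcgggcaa
Lmna promoter, chr3:88503303-88503602: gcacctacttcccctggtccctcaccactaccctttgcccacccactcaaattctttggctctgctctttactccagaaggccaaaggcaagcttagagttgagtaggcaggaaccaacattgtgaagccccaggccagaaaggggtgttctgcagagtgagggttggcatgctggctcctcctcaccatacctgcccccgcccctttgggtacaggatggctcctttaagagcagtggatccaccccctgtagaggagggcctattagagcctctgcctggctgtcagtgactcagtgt
The Syne1 and Lmnb2 promoters each held 4 CANNTG matches and the Lmna promoter held none. The RefSeq Lmna gene extends further upstream than the Lmna promoter printed here. CANNTG reads the same on both strands as a pattern, and was present in 9 of the 15 promoters and in 72.3% of all promoters. The form CAGCTG, likewise its own reverse complement, was in 2 of the 15 (16.3% of all) and CACCTG, searched on both strands, in 3 of the 15 (20.2% of all). Both forms are contained in CANNTG. None of the 3 promoters printed held either form. Sequence under the intronic and distal regions was not analysed here.

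The factors were then compared within ASCs. No gene of the 10 had a MyoG region in 2 or more ASC libraries, and over all protein-coding genes the share was 0.201%. MyoG peaks were found at Lmnb2 and Syne1 in ASC replicate 1, the library with the most MyoG peaks (916). The MyoG peak at Lmnb2 (chr10:80913795-80914859) lay on Lmnb2 region 1. Its score was 54.6, at percentile 42.2 of its list. Of the 6 MyoD regions present in at least 2 ASC libraries, 5 had no ASC MyoG peak, against 96.3% of 1985 such regions over the genome (1985 rather than 1986 once MyoG peaks are merged in), and Lmnb2 region 1 was the 1 with a MyoG peak, against 3.73%.

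Whether the missing peaks had been called and then left out of the lists was examined through the peak numbers, which run in order of position within each chromosome in all 12 lists. For each region and each list without a peak there, and likewise for the 4 genes without peaks, the numbers of the listed peaks on either side were compared. In the ASC MyoD lists all 31 such pairs were consecutive. In QSC MyoD 36 of 50 were consecutive, 5 had at least 1 number missing in between, and 9 lay beyond the first or last listed peak of the chromosome. The 5 comprised the 3 Lmnb2 regions in replicate 2 and Emd in replicates 2 and 3. A called but unlisted QSC MyoD peak is therefore possible at Lmnb2 in replicate 2, while in replicates 1 and 3 the numbers around Lmnb2 were consecutive. In ASC MyoG 34 of 49 pairs were consecutive, 8 had numbers missing and 7 lay beyond the listed peaks of the chromosome. The 8 comprised the 3 Tmpo regions, with 8 numbers missing in replicate 1 and 1 in replicate 2, Lmnb1 in replicate 1 and Emd in replicate 2. A called but unlisted MyoG peak is thus possible at both Tmpo regions counted above as having no ASC MyoG peak. In QSC MyoG 34 of 51 were consecutive, 3 had a number missing and 14 lay beyond the listed peaks.

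Of the 4 genes with an ASC-specific MyoD region, Lmna and Tmpo had 2 each, while over all genes 17.2% of the 1615 with any had 2 or more. The second region of each was weak and listed in 2 libraries, at scores of 53.3 and 51.6 (Lmna) and 57.1 and 66.3 (Tmpo). At a score of at least 80, or with a peak in all 3 libraries, 3 regions in 3 genes remained, 1 in each. The Lmna regions lay 3.44 kb apart and those of Tmpo 58.3 kb apart.

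A separate list held 24 other genes of the nuclear envelope and proteins that associate with it (LEM-domain proteins, torsins and their partners, further SUN and KASH proteins, lamin-processing enzymes and others). Of these, 5 had an ASC-specific MyoD region (20.8%, against 5.92% of protein-coding genes). The list was drawn up with earlier results of these data known, so its share is not independent evidence. At least 2 of the 5 (Wfs1 and Cbx5 among them) are better known for other sites in the cell. None of the 24 had a MyoG or QSC MyoD region in 2 libraries. Syne3, which encodes another nesprin, had 2 regions in all 3 ASC MyoD libraries, both in intron 2 of 18, with scores of 400, 256 and 221 (mean 293 ± 94.7, chr12:104992457-104993672) and of 127, 83.2 and 69.0 (mean 93.1 ± 30.3, chr12:104978707-104979993). Tor1aip2, which encodes a cofactor of torsin ATPases, had an intron 2 region with a mean score of 173 ± 19.6 (n = 3). Wfs1, which encodes the endoplasmic reticulum protein wolframin, had a distal intergenic region at 137 ± 21.9 (n = 3). Cbx5, which encodes the heterochromatin protein HP1α, had a promoter region at 71.2 ± 7.35 (n = 3). Tmem201, which encodes an inner nuclear membrane protein, had a promoter region in 2 libraries at scores of 51.5 and 52.0.

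A second list of 28 nuclear pore genes, of which 27 were found in RefSeq by symbol, gave 2 with an ASC-specific MyoD region (7.14%, against 5.92%), and was drawn up in the same way. Nup210, which encodes a membrane-spanning pore protein, had a promoter region with scores of 92.5 and 71.5 in replicates 1 and 2. Nup214, which encodes a pore protein of the cytoplasmic face, had a promoter region with scores of 55.7 and 62.7 in replicates 1 and 3.

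**Figure D4:**
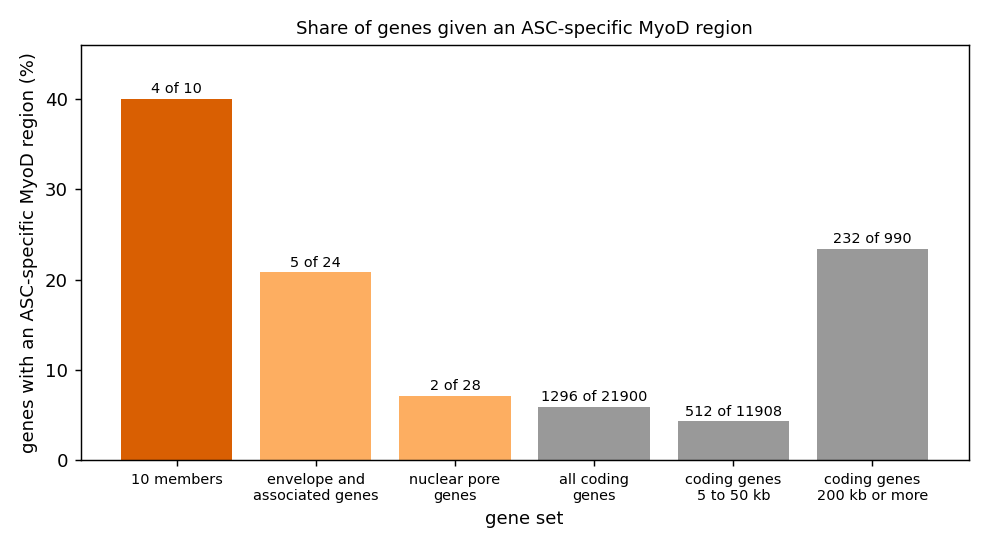
Percent of genes given an ASC-specific MyoD region (bars, starting at 0, with counts above) for the 10 genes, the list of other envelope and associated genes, the nuclear pore list, and RefSeq protein-coding genes in all and by length. The bars stand at 4 of 10, 5 of 24 and 2 of 28 for the lists and at 5.92% for all protein-coding genes. The 10 genes were chosen through a MyoD region of one of them, and the other lists were drawn up with earlier results known.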

How the data were processed

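MyoD and MyoG ChIP-seq peak lists of QSCs and ASCs were used, 1 list per library and 12 in all. Per the submitters' processing notes, reads were handled with BWA 0.7.5, MACS and deepTools 3.5.0 on mm10. How the input was used is not given in the sources used here. Each deposited list gives start and end positions (unit: other, in bp) and, as deposited, a score per peak of minus 10 times the log10 of its p-value. Sequencing depth, which moves such scores, is unknown, so scores set side by side between libraries, their means over libraries and the ranks and likenesses built on them describe the calls and were not corrected for depth.

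Groups and replicate numbers came from sample titles, and the replicates were biological by the study's account, though not tied to named animals. The permutation and sign-flip p-values concern only the presence of a listed peak in these libraries. The p-value behind each score comes from peak calling within 1 library. Peaks were selected by gene name and merged at 1 bp of overlap (Python 3.11.15, pandas 2.3.3). Region calling was run on simulated lists of well separated regions planted to meet or miss the rule. That run checked the code only and does not show how weak or adjacent peaks are called. RefSeq gene spans and the starts of RefSeq promoters (GRCm38.p6) gave lengths and distances. Sequence was read in the RefSeq promoters only. All 10 genes are named, with genes of the 2 other lists that had a region in at least 2 libraries of a group, and the 3 regions most alike. The genes and lists were chosen with earlier results of these data known. Alternatives were a score of at least 80, overlap of 50% of both peaks, a gap of 500 bp, a peak in all 3 or at least 1 library, and leaving out each library.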

Additional observations from a re-analysis of the deposited data

How the results depend on the processing

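The ASC-specific MyoD regions at the 10 genes numbered 6, against 3 at a score of at least 80, 3 with a peak in all 3 libraries and 11 with a peak in at least 1 library. Those of at least 2 ASC libraries without a MyoG peak numbered 5, against 3, 2 and 10 under the same settings. With a peak in 1 library enough, 2 genes had a MyoG region in ASCs and 1 had a MyoD region in QSCs, in place of 0 and 0. Leaving out each library in turn gave 3 to 6 ASC-specific regions, 2 to 6 without a MyoG peak, and 3 to 4 genes with an ASC-specific region. The lowest values, 3 and 2, came without ASC MyoD replicate 1, and without ASC MyoD replicate 2 the regions without a MyoG peak numbered 3. Fewer libraries to draw from lower these counts by construction. The genes with an ASC-specific region stayed within 1.5 times of 4 under each alternative, at 5 with regions assigned by position and at 3 with genes given any QSC MyoD peak (Tmpo) left out, both chosen after seeing the data. Pairing the libraries by replicate number (replicate block) left each presence difference as it was (1.0 for Lmnb2 region 1, Lmna region 1 and Tmpo region 1), and the exact sign-flip p-value of 0.25 is the smallest that 3 pairs allow. Peak lists hold no reads, so a missing peak shows only that none was listed.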
